A study of Mus musculus with 22 samples.

Results

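The transcripts described are those of the tricarboxylic acid (TCA) cycle and of the shuttles that link it to the cytosol. They were measured in the epididymal fat of mice that breathed oxygen-poor or normal air for 6 hours. The set was a list of 31 gene symbols, and all 31 were measured among 16578 genes tested. A member counted as measured where a probe carrying its symbol gave a Cy5 signal well above background on at least 10 of 22 arrays. The animals were male C57BL/6JOlaHsd mice, an inbred strain, which arrived at 10 weeks of age. They ate a purified diet with 10% of its energy from fat for 3 weeks and then one with 40% for 6 weeks, per the labels' protocols, whose treatment text also mentions low-fat feeding without naming mice. All were then fasted. The normoxia group (12 mice) stayed at 20.9% oxygen and the hypoxia group (10 mice) was kept at 12% oxygen. Each array paired the RNA of 1 mouse, in Cy5, with a reference pool of every sample, in Cy3, so each value is a log2 ratio to that pool. No dye was swapped, so a probe's offset from 0, which is common to all mice, says nothing of its transcript's level, and only differences between mice were read.

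The TCA cycle oxidises acetyl-CoA in the mitochondrial matrix and hands electrons to the respiratory chain, which passes them to oxygen. In white fat the cycle also exports citrate as a source of cytosolic acetyl-CoA for fatty acid synthesis. The malate-aspartate shuttle carries the electrons of cytosolic NADH into the matrix, and pyruvate carboxylase refills the cycle with oxaloacetate. Hypoxia-inducible factors are known to act on the entry of pyruvate into the cycle through a kinase that switches pyruvate dehydrogenase off.

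No member differed between the groups beyond the spread between mice. With limma's moderated test and Benjamini-Hochberg adjustment over all genes, 0 of 31 members passed the threshold of 0.05, where 0% of all genes tested did. At an unadjusted p under 0.05 the count was 0 of 31 members, against 5.3% (879) of all genes. The smallest unadjusted p of a member was 0.072 and the smallest adjusted p 0.952. The mean was higher in hypoxia for 14 members and lower for 17, so 45.2% were higher, against 50.4% of all genes. The median difference was -0.0045 on the log2 scale, against 0.0011 for all genes, and the median size regardless of sign was 0.056 against 0.070. The differences ran from -0.18 (Idh3a) to 0.16 (Suclg1).

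The precision of these differences was that of the array as a whole, with a median standard error (SE) of 0.097 for the members and 0.098 for all genes. The 95% intervals of all 31 members lay inside -0.5 to 0.5. The lowest bound was -0.42, a fold of 0.749, and the highest 0.42, a fold of 1.34. Smaller differences could not be resolved with these numbers of mice, and a missed threshold does not show that the groups were alike. For no member did the values of the groups stand clear of each other, a count that was not made over all genes.

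**Figure D1:**
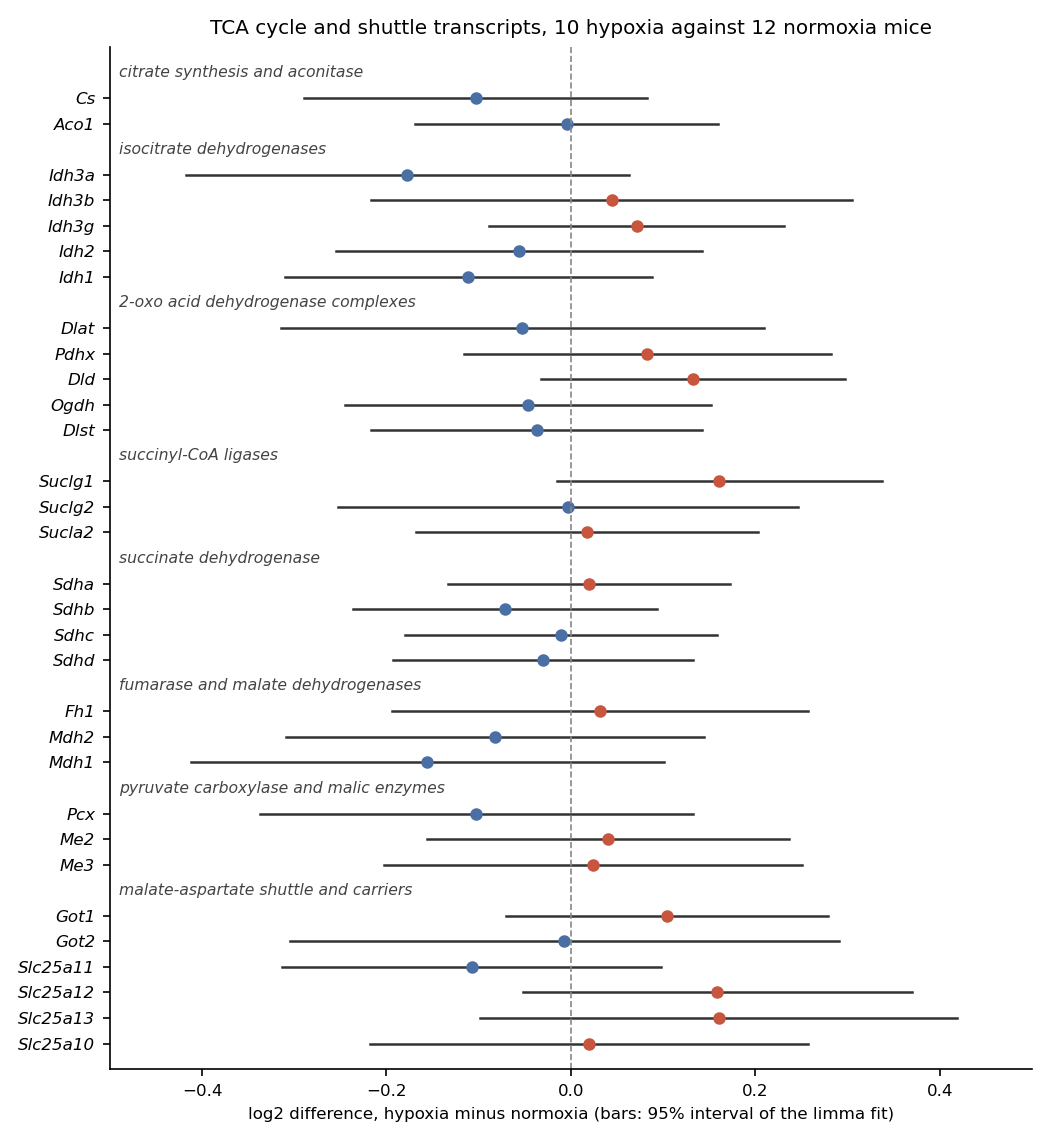
Difference of each of the 31 transcripts, hypoxia (10 mice) minus normoxia (12 mice), on the log2 scale, ordered by the role of the protein. Points are the differences and bars the 95% intervals of the limma fit; every bar crosses 0, and the extremes are Idh3a at -0.18 and Suclg1 at 0.16.

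The arrays differed in brightness. Between 15.6% and 76.8% of an array's spots gave a Cy5 signal well above background, and the 4 arrays of slide 1 lay lowest, at 15.6% to 18.9%. Of the 6 slides, 5 carried both groups and slide 2 carried normoxia mice alone. The probes of 20 members were well above background on all 22 arrays, Aco1 was lowest with 13 arrays, and no member value was saturated. All 7 markers of adipocytes, the defining cell of the labelled tissue, were measured. A list's level in a mouse is given as the mean deviation of its genes from their means over all mice. For adipocytes it ran from -0.45 to 0.74 in normoxia and from -0.20 to 0.79 in hypoxia, and all 7 means were higher in hypoxia (median 0.17). For smooth muscle (3 of 3 measured, all higher, median 0.34) it ran from -0.69 to 0.56 and from -0.28 to 0.55. For red blood cells (3 of 4 measured, all higher, median 0.43, Slc4a1 on at most 3 arrays) the ranges were -0.84 to 0.52 and -0.33 to 1.02, and for macrophages (5 of 5, 4 higher, median 0.0996) -0.36 to 0.26 and -0.26 to 0.47. For endothelium (5 of 5, 4 higher, median 0.11) the ranges were -0.26 to 0.17 and -0.061 to 0.16, and for mesothelium (4 of 4, all higher, median 0.26) -0.51 to 0.43 and -0.53 to 0.87. Sperm transcripts (4 of 6 measured, all lower, median -0.53) ran from -1.60 to 3.26 and from -1.30 to 1.69. In limma's fit 0 genes of these lists passed after adjustment, where 0% of all genes did. The unadjusted p was under 0.05 for 3 of 3 red blood cell genes and 2 of 3 of smooth muscle. It was so for 1 of 5 of endothelium, 1 of 4 of mesothelium and 0 of the measured adipocyte, macrophage and sperm genes. Over all genes 5.3% had such a p, and 50.4% had a higher mean in hypoxia. Of 3 T and NK cell genes 2 were measured (1 higher, 1 lower), and of 4 skeletal muscle genes 1 (Acta1, 0.22 ± 0.14, SE). Of 4 brown fat genes, which mark a fat cell rich in mitochondria, 2 were measured. Cidea (-0.26 ± 0.17, SE) and Cox8b (-0.25 ± 0.18) both had a lower mean in hypoxia, and their joint level ran from -0.15 to 1.17 and from -0.60 to 0.39. Progenitor markers (4 of 4, 3 lower, median -0.024) ran from -0.44 to 0.39 and from -0.27 to 0.18. The brown fat gene Ucp1 was above background on at most 3 arrays, and of 4 epididymis markers 0 were measured. What part these differences in cell markers, none of which passed the threshold, have in the member values was not tested. In whole tissue fewer cells of a type and less RNA per cell cannot be told apart.

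Citrate synthase (Cs), which joins acetyl-CoA to oxaloacetate, had a difference of -0.10 ± 0.090 (SE). Its values were 0.015, 0.20 and 0.63 (lowest, median and highest) in normoxia and -0.25, 0.13 and 0.52 in hypoxia, so that the groups overlapped over most of their range. Aco1 encodes the cytosolic aconitase, which doubles as an iron sensor, and differed by -0.0045 ± 0.080.

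The isocitrate dehydrogenases use NAD+ (Idh3) or NADP+ (Idh1 in the cytosol and peroxisomes, Idh2 in mitochondria). Of the 5 genes, 2 had a higher and 3 a lower mean in hypoxia. Idh3a, the catalytic subunit of the NAD+ enzyme, had the most negative difference of all members, at -0.18 ± 0.12 (SE, p = 0.140). The 12 normoxia mice had a log2 ratio of 0.27 ± 0.26 (SD) and the 10 hypoxia mice 0.092 ± 0.32 (SD), with -0.30, 0.36 and 0.68 as lowest, median and highest normoxia values and -0.55, 0.14 and 0.54 in hypoxia. The lowest hypoxia mouse was replicate 7, on the dimmest array, and without it the difference was -0.11, a setting chosen after the data were seen. The regulatory subunits of the same enzyme lay on the other side of 0, Idh3b at 0.044 ± 0.13 and Idh3g at 0.071 ± 0.078.

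Idh1 differed by -0.11 ± 0.097 (SE, p = 0.262). Its values were -0.54, -0.18 and 0.43 in normoxia and -0.62, -0.27 and -0.027 in hypoxia. The hypoxia mice thus lay within the lower part of the normoxia range, apart from 1 that was slightly below it, and 1 of 10 exceeded the normoxia mean. Leaving out each mouse in turn, which was added after the data were seen, moved the Idh1 difference to -0.056 without normoxia replicate 1. Idh2 differed by -0.056 ± 0.097.

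The 2-oxo acid dehydrogenase complexes feed the cycle with acetyl-CoA (pyruvate dehydrogenase) and convert 2-oxoglutarate within it. Of 5 members 2 had a higher mean. Dld, the dihydrolipoamide dehydrogenase that both complexes share, differed by 0.13 ± 0.080 (SE, p = 0.111). Its values were -0.52, -0.087 and 0.0033 in normoxia and -0.28, -0.0040 and 0.34 in hypoxia. The highest normoxia mouse lay near the middle of the hypoxia mice, and 7 of 10 hypoxia mice were above the normoxia mean. A second Dld probe differed by 0.051 ± 0.091.

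The other subunits of these complexes differed less. Dlat, the acetyltransferase core of pyruvate dehydrogenase, differed by -0.053 ± 0.13 (SE) and its binding protein Pdhx by 0.083 ± 0.097. Ogdh, which decarboxylates 2-oxoglutarate, differed by -0.046 ± 0.097, and its succinyltransferase partner Dlst by -0.037 ± 0.087.

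Succinyl-CoA ligase, the step of the cycle that makes ATP or GTP directly, held the member with the smallest p. Suclg1 encodes its shared alpha subunit and differed by 0.16 ± 0.086 (SE), or 1.12-fold, with p = 0.072 and an adjusted p of 0.952 in limma's test. The log2 ratio averaged -0.048 ± 0.22 (SD) over the 12 normoxia mice and 0.11 ± 0.15 (SD) over the 10 hypoxia mice. In normoxia the lowest, median and highest values were -0.43, 0.0080 and 0.33, and in hypoxia -0.19, 0.094 and 0.32. All 10 hypoxia mice therefore lay inside the normoxia range, and 9 of them above the normoxia mean. The beta subunits set the nucleotide, Suclg2 for GTP and Sucla2 for ATP, and differed by -0.0032 ± 0.12 and 0.018 ± 0.090.

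The 60-base probe behind the Suclg1 value is shown because this gene had the smallest p of a member. The files place it at chr6:73221044-73221103 on the plus strand of mm9. The capitals mark the 19 whole codons of the only forward reading frame without a stop codon.
Suclg1: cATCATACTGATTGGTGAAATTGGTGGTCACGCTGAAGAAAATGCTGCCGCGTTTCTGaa

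Succinate dehydrogenase passes electrons from succinate to the respiratory chain as complex II, and its 4 subunits differed by little. The flavoprotein Sdha differed by 0.020 ± 0.074 (SE), the iron-sulphur protein Sdhb by -0.072 ± 0.080, and the membrane anchors Sdhc and Sdhd by -0.011 ± 0.082 and -0.030 ± 0.079. By the brightest probe of each gene, succinate dehydrogenase lay between -0.072 and 0.020, the narrowest range of the roles with over 3 members. A second Sdhc probe, at -0.10 ± 0.086, lay outside that range.

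Fumarase and the malate dehydrogenases close the cycle. Fh1, fumarase, differed by 0.031 ± 0.11 (SE). Mdh1, the cytosolic malate dehydrogenase of the malate-aspartate shuttle, differed by -0.16 ± 0.12 (p = 0.223). Its values were 0.40, 0.77 and 1.19 in normoxia and 0.13, 0.63 and 1.24 in hypoxia. The hypoxia mice spread beyond the normoxia mice at both ends, and 4 of 10 were above the normoxia mean. Without hypoxia replicate 2 the Mdh1 difference was -0.0995. Mdh2, the mitochondrial enzyme, differed by -0.082 ± 0.11, with -0.13, 0.35 and 0.75 in normoxia and -0.097, 0.17 and 0.66 in hypoxia.

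Pyruvate carboxylase (Pcx), which makes oxaloacetate from pyruvate, differed by -0.10 ± 0.11 (SE). The mitochondrial malic enzymes, which turn malate into pyruvate, differed by 0.040 ± 0.096 (Me2) and 0.024 ± 0.11 (Me3).

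Of the 6 shuttle enzymes and carriers 4 had a higher mean in hypoxia. The aspartate-glutamate carriers move aspartate out of the matrix, and both had positive differences. Slc25a12 differed by 0.16 ± 0.10 (SE, p = 0.135), with -0.49, -0.15 and 0.32 in normoxia and -0.29, 0.051 and 0.55 in hypoxia, so that 7 of 10 hypoxia mice were above the normoxia mean. Without hypoxia replicate 10 the Slc25a12 difference was 0.10. Slc25a13 differed by 0.16 ± 0.13 (p = 0.214), with -0.73, -0.43 and 0.38 in normoxia and -0.57, -0.22 and 0.29 in hypoxia. For Slc25a13 the highest mouse was in normoxia, and its probe was above background on 15 arrays.

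The aspartate aminotransferases were Got1 (cytosolic), at 0.10 ± 0.085 (SE, p = 0.231), and Got2 (mitochondrial), at -0.0071 ± 0.14. Got1 had values of -0.39, -0.24 and 0.22 in normoxia and -0.33, -0.077 and 0.22 in hypoxia. The ends of the Got1 ranges nearly coincided while the middle lay higher in hypoxia. The oxoglutarate-malate carrier Slc25a11, the other transporter of the shuttle, differed by -0.11 ± 0.10, and the dicarboxylate carrier Slc25a10 by 0.019 ± 0.12.

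**Figure D2:**
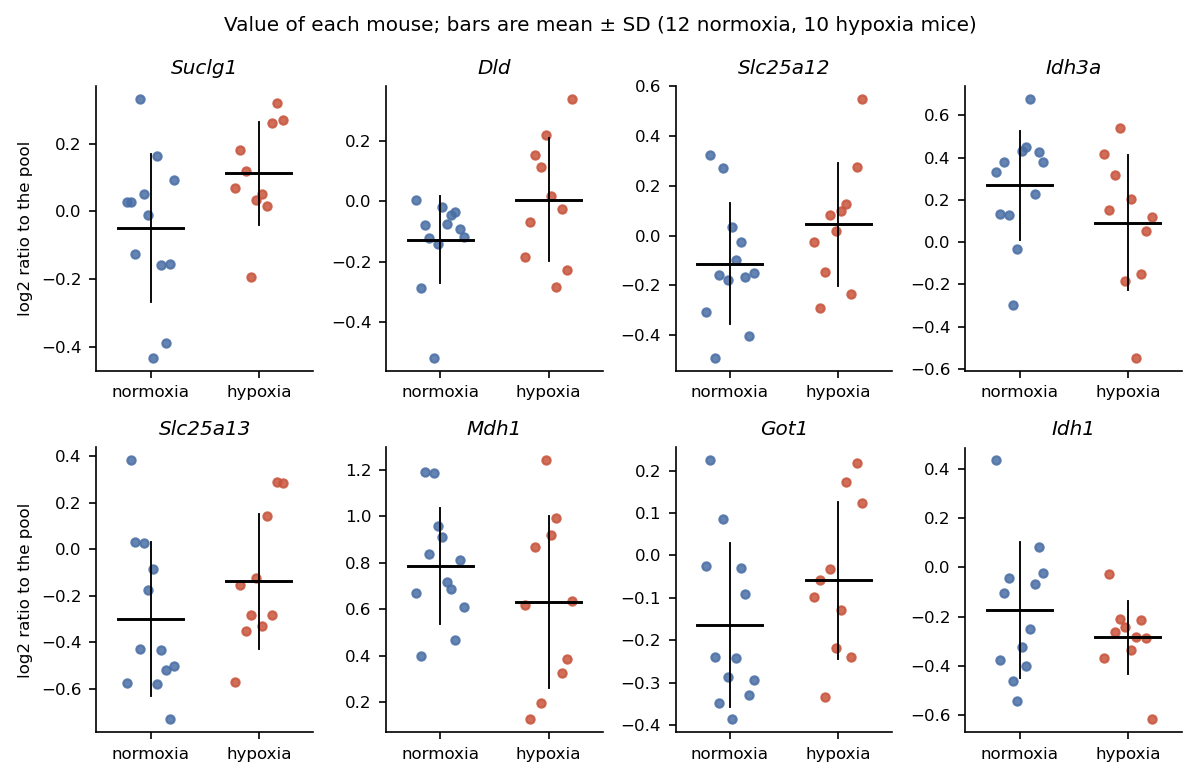
Log2 ratio to the pool in each of 12 normoxia and 10 hypoxia mice for the 8 transcripts with the smallest unadjusted p (0.072 to 0.262), with a scale of its own for each gene. Horizontal bars are means and vertical bars SD; the groups overlap in all 8 panels.

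Within slides, where 2 hypoxia mice could be set against 2 normoxia mice 5 times, 3 of 31 members (9.68%) had the same sign in every slide, against 8.15% of all genes with a value in all 5, so that this count was near the background. Suclg1 was higher in all 5 slides, by 0.0016 to 0.25 with a mean of 0.12. Mdh1 was lower in all 5, by -0.39 to -0.071 with a mean of -0.20, and Mdh2 likewise, by -0.31 to -0.012 with a mean of -0.12. Dld (mean 0.15), Slc25a12 (0.16) and Got1 (0.12) were higher in 4 of 5 slides, and Idh3a (-0.14), Pcx (-0.13) and Ogdh (-0.090) were lower in 4. With slide as a fixed block in limma, Mdh1 was the single member with an unadjusted p under 0.05 (-0.20, p = 0.0428). That is 1 of 31 members, where 5.65% of all genes had such a p, and 0 members passed after adjustment.

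**Figure D3:**
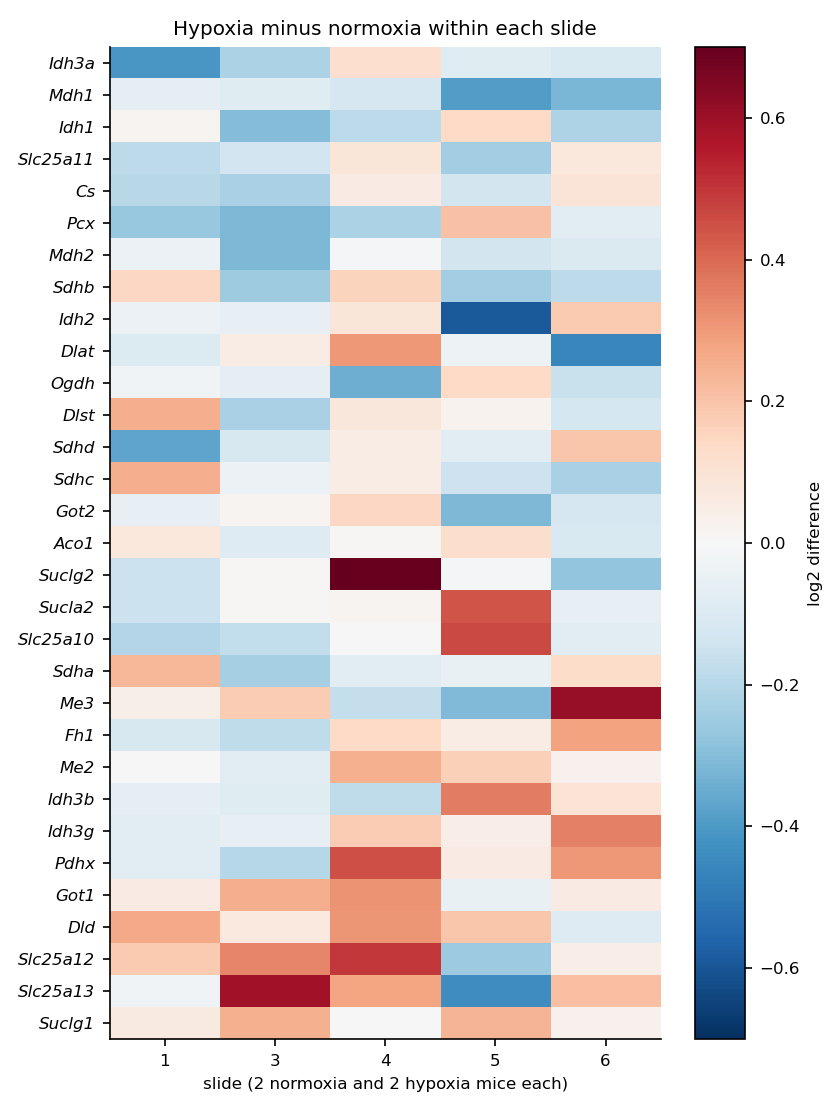
Hypoxia mean minus normoxia mean (log2, colour scale) of each transcript within the 5 slides that carry 2 mice of each group, ordered by the difference over all mice. The rows of Mdh1 and Mdh2 are blue or near white in all 5 slides and that of Suclg1 is red or near white in all 5, while most other rows mix both colours.

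No pair of related enzymes shifted apart beyond the spread between mice. For each mouse the log2 ratio of one gene was subtracted from that of the other, and group labels were permuted 100000 times (two-sided), with adjustment over 8 pairs. The smallest p was that of Mdh1 minus Mdh2, the cytosolic against the mitochondrial enzyme, at -0.073 ± 0.074 (SE, permutation p = 0.339, adjusted p = 0.982, with 2 of 10 hypoxia mice above the normoxia mean). The NADP+ against the NAD+ isocitrate dehydrogenase of mitochondria, Idh2 minus Idh3a, differed by 0.12 ± 0.17. For the cytosolic against the mitochondrial aminotransferase, Got1 minus Got2, the difference was 0.11 ± 0.14, and for Aco1 minus Cs it was 0.099 ± 0.13. Idh1 minus Idh2 differed by -0.055 ± 0.13. Nearest 0 were Suclg2 minus Sucla2 at -0.021 ± 0.13, Me2 minus Me3 at 0.016 ± 0.14 and Slc25a12 minus Slc25a13 at -0.0014 ± 0.11. These 3 were chosen as alternative isoforms, as was Idh2 minus Idh3a, which had the largest difference of the 8 pairs.

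Genes that adjoin the cycle did not pass either. Of 33 listed genes for pyruvate entry, glutamate and citrate handling, lipoylation and complex II assembly, 30 were measured, and Ogdhl, Slc25a18 and Slc25a21 were above background on at most 3 arrays. In limma's fit 0 of 30 passed the threshold, where 0% of all genes tested did. An unadjusted p under 0.05 was seen for 0 of 30, against 5.3% of all genes. The mean was higher in hypoxia for 15 and lower for 15, so 50% were higher, against 50.4% of all genes. Among the adjoining genes with the smallest p, Pdha1, the catalytic subunit of pyruvate dehydrogenase, differed by 0.18 ± 0.11 (SE). The phosphate carrier Slc25a3 differed by -0.15 ± 0.098, glutamate dehydrogenase (Glud1) by 0.15 ± 0.099, and the citrate carrier Slc25a1 by -0.15 ± 0.13.

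The spread between mice was close to that of all genes tested. The median SD of a member was 0.24 in normoxia and 0.22 in hypoxia, against 0.24 and 0.20 for all genes. The SD was larger in normoxia for 20 of 31 members, or 64.5%, and for 67.9% of all genes. Got2 varied most in normoxia and next to most in hypoxia, with SDs of 0.38 and 0.36. Idh3g was tight in hypoxia, at 0.071 against 0.21 in normoxia, as was Dlst, at 0.099 against 0.25. Mdh1 (0.25 in normoxia, 0.37 in hypoxia) and Sdhb (0.12 and 0.22) had the wider spread in hypoxia. These SDs are descriptions and their differences were not tested.

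**Figure D4:**
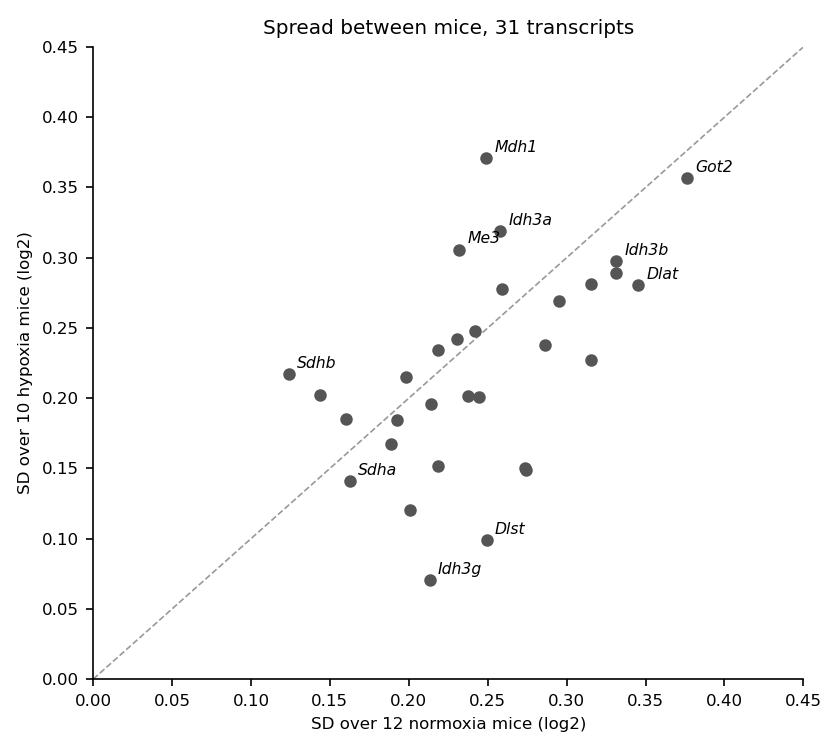
SD of the log2 ratio over 10 hypoxia mice (vertical axis) against that over 12 normoxia mice (horizontal axis) for the 31 transcripts, with equality as a dashed line. Below the line lie 20 transcripts, with Idh3g (0.071) and Dlst (0.099) lowest, and Got2 lies farthest out at 0.38 and 0.36.

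Between mice of a group the members mostly varied apart from each other. Over deviations from the group means in 22 mice, the 465 member pairs had a median Pearson r of 0.0034, against 0.022 for all pairs of genes. An r above 0.7 was seen in 0.43% of member pairs and in 0.644% of all pairs. By permutation within groups, 2 of the 465 pairs passed after Benjamini-Hochberg adjustment by Pearson's r.

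The malate dehydrogenases formed the closest pair. Mdh1 and Mdh2 correlated at r = 0.83 (permutation p = 1e-05 and adjusted p = 0.00465, where 1e-05 is the lowest p that 100000 draws allow) with a Spearman rho of 0.80 (p = 3e-05, adjusted p = 0.00698). Without the 2 mice farthest from the median of Mdh2 (Mdh1 was not used to choose them) r was 0.87. It was 0.76 among normoxia and 0.91 among hypoxia mice. The pair moved with the slide, however. The 4 mice on the dim slide 1 had the 4 highest values of Mdh1, at 1.24, 1.19, 1.19 and 1.00, and no other mouse exceeded 0.96. The same 4 had the highest values of Mdh2, from 0.65 to 0.75, and no other mouse exceeded 0.47. Within slides r was 0.46, and without slide 1 it was 0.65. The mean level of adipocyte markers also followed Mdh1 (r = 0.65, rho = 0.55) and Mdh2 (r = 0.66, rho = 0.46), each with an adjusted p of 0.051 by permutation of r, and within slides at 0.30 and 0.26.

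The other pair was Cs and Idh3a, both of which act between oxaloacetate and 2-oxoglutarate. They correlated at r = 0.76 (permutation p = 0.00014, adjusted p = 0.0325), with a rho of 0.79 (p = 2e-05, adjusted p = 0.00698). The r was 0.70 without the 2 mice farthest from the median of Cs, 0.79 in normoxia and 0.73 in hypoxia. Within slides it was 0.87 and without slide 1 it was also 0.87, so this pair was as close without the dim arrays. By rank alone 1 more pair passed, Dlat and Sdhc, with a rho of 0.73 (adjusted p = 0.0434) and an r of 0.65 (adjusted p = 0.0791).

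**Figure D5:**
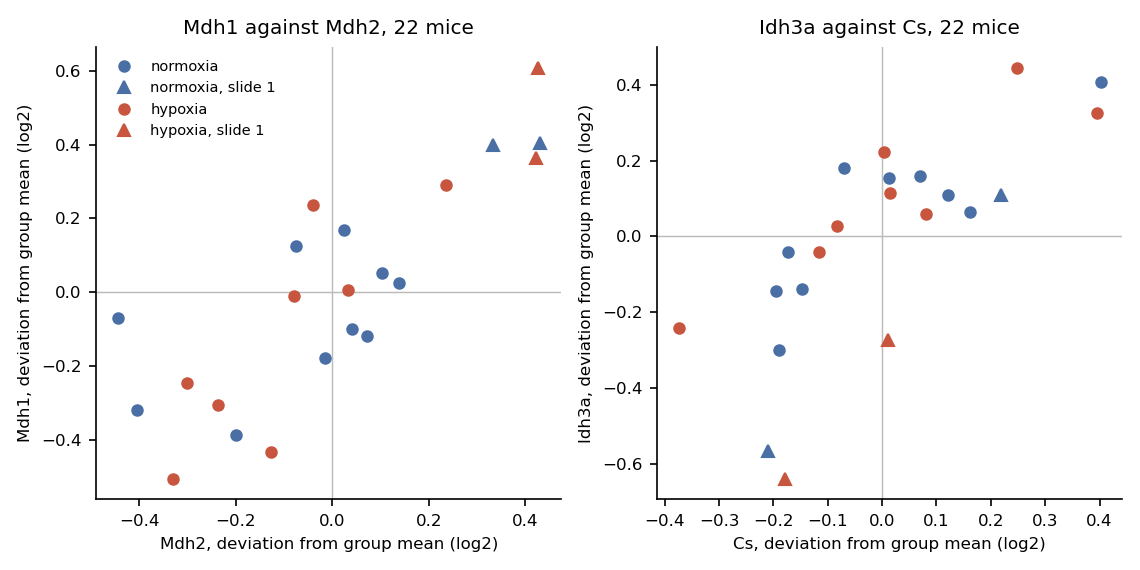
Deviation of each mouse from its group mean (log2) for Mdh1 against Mdh2 (left) and Idh3a against Cs (right), over 12 normoxia and 10 hypoxia mice; triangles are the 4 mice of slide 1. The r is 0.83 on the left, where the triangles lie together at the top right, and 0.76 on the right, where they are spread out.

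The stretches just upstream of 3 of these 4 genes are shown because the transcripts varied together. They are the 250 bases before the gene's start in RefSeq on GRCm38.p6, which held an entry for 28 of the 31 members (not Idh3a, Me2 and Sdhc). Mdh1 lies at chr11:21571935-21572184 on the minus strand, Mdh2 at chr5:135778399-135778648 on the plus strand and Cs at chr10:128337477-128337726 on the plus strand. Capitals mark matches, on either strand, to ACGTG or GCGTG (the core of the hypoxia response element), AAGGTCA (a half-site of oestrogen-related receptors), GCGCATGC (nuclear respiratory factor 1) and TGACGTCA (the cyclic AMP response element).
Mdh1: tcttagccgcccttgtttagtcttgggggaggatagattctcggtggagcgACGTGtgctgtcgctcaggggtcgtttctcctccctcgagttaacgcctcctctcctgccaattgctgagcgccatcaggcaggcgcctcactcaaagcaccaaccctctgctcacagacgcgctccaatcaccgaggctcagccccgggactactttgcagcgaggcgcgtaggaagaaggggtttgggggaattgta
Mdh2: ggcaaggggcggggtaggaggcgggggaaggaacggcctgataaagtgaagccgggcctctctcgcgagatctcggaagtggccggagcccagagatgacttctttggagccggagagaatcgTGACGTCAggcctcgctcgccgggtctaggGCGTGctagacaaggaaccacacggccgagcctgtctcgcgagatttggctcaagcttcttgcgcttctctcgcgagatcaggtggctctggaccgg
Cs: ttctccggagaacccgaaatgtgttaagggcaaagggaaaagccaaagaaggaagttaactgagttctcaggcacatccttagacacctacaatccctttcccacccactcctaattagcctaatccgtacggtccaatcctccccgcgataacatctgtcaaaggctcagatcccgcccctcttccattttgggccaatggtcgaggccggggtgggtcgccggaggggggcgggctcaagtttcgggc

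Mdh1 held 1 match (ACGTG), Mdh2 held 2 (GCGTG and TGACGTCA), and Cs held 0. ACGTG and GCGTG are both forms of the hypoxia response core and differ in their first letter. Ogdh alone has 6 overlapping entries, so genes were counted, each once where any of its entries held the letters. ACGTG was found in 6 of 28 member genes (21.4%), against 18.5% of all 27025 genes, and GCGTG in 15 (53.6%), against 30.9%. The 27025 are all genes with an entry, measured in this fat or not. Shares among the genes tested were not counted, so these contrasts are not read as a trait of the members. AAGGTCA was found in 1 member gene (3.57%, against 4.7%), GCGCATGC in 2 (7.14%, against 2.56%) and TGACGTCA in 2 (7.14%, against 1.77%). Over single entries, 35 for the members and 32851 in all, the shares were 31.4% against 16.6% for ACGTG and 51.4% against 28.2% for GCGTG. They were 2.86% against 4.08% for AAGGTCA, 8.57% against 2.26% for GCGCATGC and 11.4% against 1.55% for TGACGTCA. A match is a stretch of letters and not a site known to be bound.

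Markers of cell types were set against each member over the 22 mice, with 8 marker lists of at least 3 measured genes and the share of spots above background (279 relations). None passed after adjustment by Pearson's r, and 7 tied at an adjusted permutation p of 0.051. Got2 ran against the macrophage markers (r = -0.70, rho = -0.74) and Idh3a ran with them (r = 0.69, rho = 0.65). Within slides these values were -0.58 and 0.63. Pcx ran with adipocyte markers (r = 0.69, rho = 0.52, 0.45 within slides) and against the share of spots above background (r = -0.65, rho = -0.76, -0.32 within slides). Dlat ran with endothelial markers at r = 0.67 and rho = 0.74, and at 0.74 within slides. By rank 3 of these relations passed, each with an adjusted permutation p of 0.0223: Got2 with macrophages, Dlat with endothelium, and Pcx with the share of spots.

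Different probes of 1 gene did not always vary alike. A member symbol stood on 41 probes, of which 38 were tested, and 6 members had more than 1 tested probe. Over the 22 mice the 8 probe pairs had a median r of 0.12, against 0.22 over 6582 pairs of 3728 genes. Fh1 (r = 0.84, rho = 0.78, permutation p = 1e-05, adjusted p = 8e-05) and Sdhb (r = 0.67, rho = 0.74, p = 0.0005, adjusted p = 0.002) had probes that followed each other from mouse to mouse. Within slides these values were 0.79 and 0.71. The other 6 pairs did not pass. Probes of Dld correlated at 0.19, of Me3 at 0.21 and of Sdhc at -0.30, and the 3 Ogdh probes at 0.054, -0.10 and -0.47, the first from probes that start 72 bases apart.

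The group differences of alternative probes were small as well. The second probe gave -0.054 ± 0.11 (SE) for Fh1, 0.0022 ± 0.10 for Sdhb, 0.095 ± 0.12 for Me3 and -0.10 ± 0.086 for Sdhc. The other Ogdh probes gave 0.012 ± 0.083 and 0.024 ± 0.084. No 2 probes of a member were as far apart as 0.3 on the log2 scale. Other probes of Me2 (0 arrays above background) and Pdhx (1 array) and another of Me3 (2 arrays) were not tested.

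Shown for contrast are probes of Fh1 and Sdhb, whose probes followed each other from mouse to mouse, and of Dld, whose probes did not. This choice was made after their values were seen. In the group difference the probes of Fh1 and of Sdhb had opposite signs, while those of Dld had the same sign. Capitals again mark the whole codons of the only forward frame without a stop codon. On mm9 the Fh1 probe is placed at chr1:177531659-177534089 on the minus strand, so that its 60 bases lie over 2431 bases of genome. The Sdhb probe is placed at chr4:140529606-140529665 on the plus strand and the Dld probe at chr12:32018291-32018350 on the minus strand, and both are the second probe of their gene.
Fh1: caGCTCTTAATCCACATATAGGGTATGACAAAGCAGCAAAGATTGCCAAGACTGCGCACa
Sdhb: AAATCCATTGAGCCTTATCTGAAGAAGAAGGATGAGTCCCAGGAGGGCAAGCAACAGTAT
Dld: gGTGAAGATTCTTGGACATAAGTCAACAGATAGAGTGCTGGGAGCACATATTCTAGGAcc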

How the data were processed

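Mean signals and median backgrounds are deposited intensity values, as Agilent Feature Extraction (version 10.7.3.1, per the submitters' processing notes) wrote them. The deposited log10 ratio of Cy5 over Cy3 carries Feature Extraction's own correction, per the file headers. A value table deposited by the authors gives log2 levels, whose normalization the sources used here do not state. Both served as alternatives only.

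Here, background was corrected by normexp (offset 50), loess was run within arrays, with a weight of 0 for control spots, and outlier-flagged spots (0.462%) were left out, in limma 3.58.1 under R 4.3.3. Spots of a probe were averaged, and the brightest of the tested probes stood for a gene. Group was the only term of the fit, which was tested on simulated data. Precision is limited by how many arrays there are. The series text calls the mice of a group biological replicates. Correlations and pairs used Python 3.11.15 and scipy 1.17.1, and promoter entries came from RefSeq. The exon under a probe is not given here.

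The members and lists were chosen with earlier results of these data known. Every member is named. Lowest, median and highest values per group are given for the 8 with the smallest p, and also for Cs and Mdh2, which are not among them. Of the adjoining genes, those with the smallest p are named, apart from a result that is not reported here. No probes met the sequence rule (opposite signs, over 0.3 apart), so sequences were chosen otherwise. Replicate numbers were not taken to pair the mice. Deviations of same-numbered mice correlated at -0.47 to 0.25 and exceeded 0.1 in 2 of 10 pairs. Differently numbered mice were not set beside them, so these values cannot show that no pairing exists.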

Additional observations from a re-analysis of the deposited data

Results flagged for a closer look

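For the 31 transcripts and the 8 pair differences, the highest and lowest of the 10 hypoxia mice were checked for a wide gap to the next mouse (Dixon's 95% critical value). Of these 39 values 2 had one, where chance alone gives about 1 in 20, or 1.95. In Me3, a mitochondrial malic enzyme, hypoxia replicate 1 had a log2 ratio of 0.58 and the others lay between -0.55 and -0.01. In Sdhc, a membrane anchor of succinate dehydrogenase, hypoxia replicate 4 had -0.23 and the others lay between 0.09 and 0.37. The 12 normoxia mice were not searched, so a distant mouse among them is not listed here. In Me2, for example, normoxia replicate 6 had -0.89 and the next lowest normoxia mouse -0.35.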

How the results depend on the processing

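The count of members past the threshold was 0 under all 15 alternatives run. Over all genes the count was 0 as reported (879 at an unadjusted p under 0.05), 1 with arrays scaled, with the scanner's own ratio or with slide as a random block, 2 with slide as a fixed block, without slide 1 or with probes above background on all arrays, and 3 without hypoxia replicate 7. Genes at an unadjusted p under 0.05 were 72 with a median shift in place of loess and 159 of 16564 in the value table, so that share depended on the scaling. The replicate block gave 0 (565 at an unadjusted p under 0.05), and all that the labels give such mice in common is a number. A median shift in place of loess moved all genes by -0.21, and member values under it are given relative to that. The members' median was then -0.065, and -0.067 in the value table, where the median of all genes was -0.041. The correlation of Mdh1 with Mdh2 ran from 0.60 (scanner's ratio) to 0.99 (median shift) and that of Cs with Idh3a from 0.56 to 0.998 under the same settings. All kept a permutation p under 0.05, but mice were permuted within groups and not within slides. The values of 0.99 and 0.998 come from the setting without loess and are not read as a closer tie between these genes. Leaving out any 1 mouse turned the sign of none of the 8 members with the smallest p.

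No member or pair that turned its sign passed under any setting, and the causes were not tested. Without background correction Aco1 was 0.017, Me3 -0.040 and Slc25a12 minus Slc25a13 0.013. With the median shift Aco1 was 0.14, Idh3b -0.014, Idh3g -0.017, Suclg2 0.070, Sucla2 -0.051, Sdha -0.071, Fh1 -0.034, Suclg2 minus Sucla2 0.12 and Me2 minus Me3 -0.059. With scaling Aco1 was 0.0078, Got2 0.011 and Slc25a10 -0.0034. With the scanner's ratio Pdhx was -0.0016, Dlst 0.067, Slc25a10 -0.105 and Slc25a12 minus Slc25a13 0.12. In the value table Aco1 was 0.071, Idh3b -0.067, Idh3g -0.013, Suclg2 0.0052, Sucla2 -0.047, Sdha -0.063, Fh1 -0.054, Me2 -0.025, Suclg2 minus Sucla2 0.052 and Me2 minus Me3 -0.060. Member values of that table were not set relative to its median of all genes (-0.041), and Idh3g and Me2 lay above that median. With slide as a fixed block, and equally without slide 2, Aco1 was 0.0015, Dlst 0.0018, Suclg2 0.053 and Sdha -0.0007, and with a random block Suclg2 was 0.0009. Without slide 2, and within slides, Suclg2 minus Sucla2 was 0.0018 and Slc25a12 minus Slc25a13 0.038. Without slide 1 Suclg2 was 0.035, Sdha -0.028 and Sdhd 0.044. With the mean of all probes Fh1 was -0.012. With the replicate block Dlst was 0.0026, Suclg2 0.021, Sdhc 0.0090 and Me3 -0.0155. Without hypoxia replicate 7, chosen after the data were seen, Aco1 was 0.0054, Suclg2 0.037, Sdhd 0.0011, Slc25a12 minus Slc25a13 0.021 and Me2 minus Me3 -0.0046.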
